A study of Mus musculus with 2 samples.

Results

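Among the lncRNAs listed for mouse liver, 2 lie at genes of insulin signalling and glycogen breakdown. One is 9530052E02Rik (ENSMUSG00000096938), which starts opposite the coding sequence of Irs2, and the other is F730035M05Rik (ENSMUSG00000085298), which starts next to Pygl. They are 2 of 614 lncRNAs in the table of known lncRNAs, and they were chosen from these data with their levels in both diets in view. The levels are therefore given as a description, with no test. LncRNAs are transcripts without a recognised protein product, and here they were measured by sequencing total RNA from livers of wild-type C57BL/6 mice at postnatal week 27. One library came from the high fat diet group (60% high fat diet, 23 weeks) and 1 from the normal diet group, so there is no replicate error and each interval covers counting error only. The labels call the material hepatocytes, whereas the extraction protocol describes frozen whole liver, and they do not say whether animals were pooled.

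Irs2 encodes insulin receptor substrate 2, an adaptor that the activated insulin receptor phosphorylates and that passes the signal to phosphoinositide 3-kinase and Akt. In liver, Irs2 is known as a gene whose transcription is switched on in fasting by FOXO factors and lowered by insulin. Pygl encodes the liver form of glycogen phosphorylase, which releases glucose units from glycogen when glucagon or adrenaline signals a need for glucose. Insulin opposes this step and favours glycogen synthesis. Antisense lncRNAs are read from the strand opposite a coding gene, and divergent lncRNAs start near the start of a coding gene and run away from it.

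The lncRNAs sit differently at their coding neighbours, as the GENCODE M21 annotation (build GRCm38) shows. 9530052E02Rik spans chr8:11007850-11054541 on the plus strand, is annotated as a processed transcript and has 2 transcripts. Its longer-spanning transcript has 5 exons. Exon 1, at chr8:11007850-11008011, is 162 bases long and lies wholly opposite the coding sequence in the large coding exon of Irs2, which is read from the minus strand. The start of 9530052E02Rik lies inside Irs2, with 607 bases between it and the Irs2 start that GENCODE gives. All other exons lie beyond an intron of 36642 bases and share no base with Irs2. Of the 1849 exon bases of the gene, 8.76% are shared with Irs2 and 91.2% are not. The following spliced sequence is shown because it holds all of the bases shared with Irs2, in capitals, and then 30 bases of exon 2 (chr8:11044654-11044683) in lower case, where the sharing ends.

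9530052E02Rik exon 1 into exon 2: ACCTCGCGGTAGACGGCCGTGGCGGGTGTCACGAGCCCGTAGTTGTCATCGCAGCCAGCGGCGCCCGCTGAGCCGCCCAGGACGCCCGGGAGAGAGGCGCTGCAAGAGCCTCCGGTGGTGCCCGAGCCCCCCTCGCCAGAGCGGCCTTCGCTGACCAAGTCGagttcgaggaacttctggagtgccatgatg

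F730035M05Rik spans chr12:70227841-70234165 on the plus strand, is annotated as a lincRNA and has 1 transcript with 5 exons and 1296 exon bases. It is arranged head to head with the Pygl transcript that starts at chr12:70227683 on the minus strand, and 157 bases lie between the starts. Another coding transcript of Pygl starts inside F730035M05Rik, with 3646 bases between the starts and an exon of 518 bases that falls within the intron behind exon 1 of the lncRNA. Only this transcript brings F730035M05Rik into the span of Pygl, and the exons of the genes share 0 bases. The stretch between the starts is printed in the direction of F730035M05Rik (chr12:70227684-70227840, plus strand, RefSeq, GRCm38.p6), with the GC box letters GGGCGG on either strand in capitals. The next sequence is the joint of exon 1 (capitals, chr12:70228349-70228378) and exon 2 (lower case, chr12:70232049-70232078), shown because the spliced lncRNA carries it and Pygl does not.

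Pygl to F730035M05Rik, between starts: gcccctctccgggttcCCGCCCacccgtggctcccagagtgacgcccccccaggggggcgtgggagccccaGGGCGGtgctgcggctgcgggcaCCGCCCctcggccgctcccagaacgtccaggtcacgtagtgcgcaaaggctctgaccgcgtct

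F730035M05Rik exon 1 into exon 2: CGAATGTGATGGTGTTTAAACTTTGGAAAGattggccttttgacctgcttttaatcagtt

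**Figure D1:**
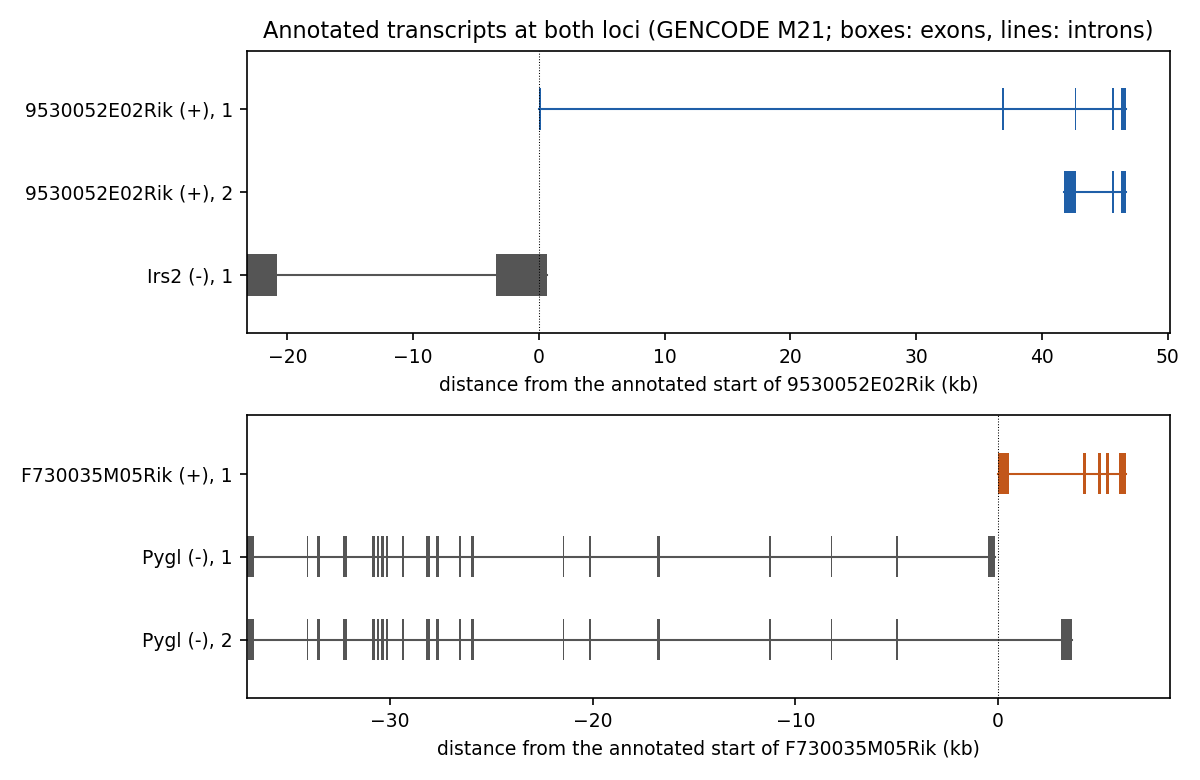
Annotated exons (boxes) and introns (lines) of both lncRNAs and of the coding transcripts of Irs2 and Pygl, as distance in kb from the annotated start of the lncRNA (dotted line). The start of 9530052E02Rik falls inside an Irs2 exon, while F730035M05Rik starts 158 bases from the start of 1 Pygl transcript and runs away from it.

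9530052E02Rik, the lncRNA at Irs2, was lower on the high fat diet. It was counted with 66 reads there and with 210 reads on the normal diet. Scaled to CPM, counts relative to the total of reads counted for known lncRNAs, this was 341 CPM (exact 95% Poisson interval 235 to 479) against 867 CPM (709 to 1050). The intervals of the libraries did not overlap, from which nothing is read, since the member was chosen with these levels in view. The level on the high fat diet was thus 2.54-fold lower, with an exact 95% counting interval of 1.71-fold to 3.88-fold, or a log2 ratio of -1.35 (-1.96 to -0.77). Here and below, ratios are high fat diet over normal diet, and each interval comes from read pairs, taken to hold 2 reads. Whether the authors counted by strand stands as not given in the sources used here, so reads in the 162 shared bases cannot be told apart from reads of Irs2, and the level of Irs2 itself was not analysed here.

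F730035M05Rik, the lncRNA next to Pygl, was higher on the high fat diet. It was counted with 36 reads there and with 4 on the normal diet, which is 186 CPM (110 to 294) against 16.5 CPM (2.0 to 59.7). The intervals again did not overlap, with the same limit from the choice of the member, and the normal diet value rests on 2 read pairs. The level on the high fat diet was 11.3-fold higher, with a counting interval from 2.70-fold to 100.1-fold, or a log2 ratio of 3.49 (1.43 to 6.65). The interval of F730035M05Rik is wide because 20 read pairs were counted over both libraries, against 138 pairs for 9530052E02Rik. In F730035M05Rik, 205 exon bases (15.8%) lie in a stretch of exons 3 to 5 that matches transcripts of 6 other genes at 95.2% to 96% identity, and reads of that stretch could be shared. For 9530052E02Rik the like figure is 51 bases (2.76%), matching 1 gene other than Irs2. Exon 1 of F730035M05Rik, 538 bases long, lies opposite an intron of the Pygl transcript that starts inside the lncRNA. As counting by strand is not known, reads of unspliced Pygl there cannot be told apart from reads of F730035M05Rik.

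**Figure D2:**
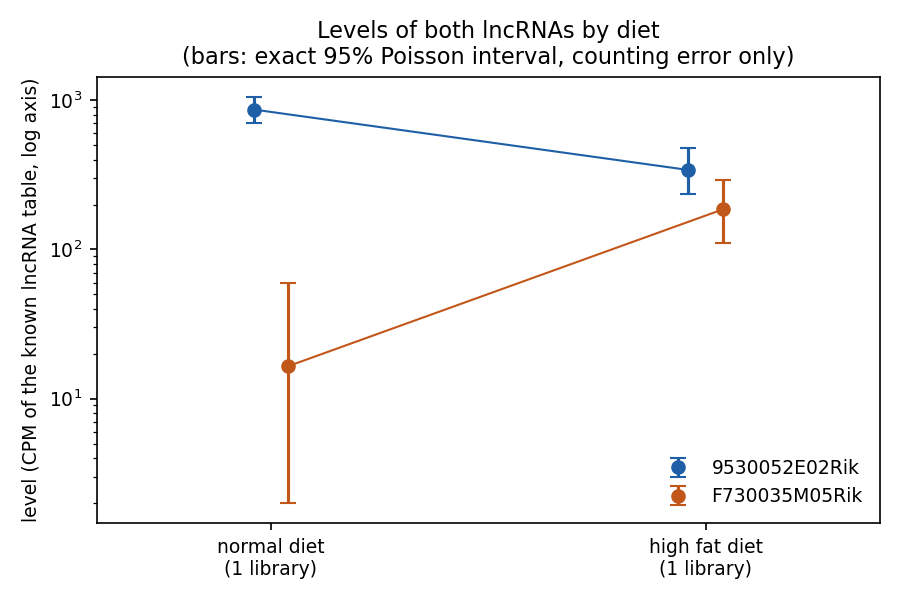
Level of each lncRNA in CPM (log axis) in the normal diet and the high fat diet library, 1 point per library, with exact 95% Poisson intervals that cover counting error only. The lncRNA at Irs2 goes from 867 to 341 CPM and the lncRNA at Pygl from 16.5 to 186 CPM, so that they stand far apart on the normal diet and close together on the high fat diet.

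The levels of the lncRNAs can be set beside each other once exon length is taken into account. In the normal diet library, 9530052E02Rik had 469 CPM per kb of exon and F730035M05Rik 12.7 CPM per kb, a 36.8-fold difference (exact 95% counting interval 9.94 to 308). In the high fat diet library the values were 184 and 144 CPM per kb, a ratio of 1.29 with an interval of 0.703 to 2.42. The interval left out equal levels in the normal diet library and held them in the high fat diet library. Both members were chosen with these levels in view, so this describes them and is no test. By CPM per kb, 9530052E02Rik ranked 145th and F730035M05Rik 484th of 606 lncRNAs with an annotated length in the normal diet library. In the high fat diet library they ranked 231st and 261st.

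Against all known lncRNAs, both lie toward the ends of the range of ratios. An lncRNA was called higher or lower where the CPM values differed at least 2-fold and the higher library had at least 20 reads. Both members were called, 1 in each direction. In the whole table, 7.69% of the 364 lncRNAs that reached the read minimum were called higher, 8.24% lower and 15.9% either way. Since the members were chosen with this contrast in view, nothing is read from their count against these shares. F730035M05Rik had the 2nd highest ratio among the 364, and 9530052E02Rik ranked 18th from the lowest. The median log2 ratio of the 364 was -0.01.

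**Figure D3:**
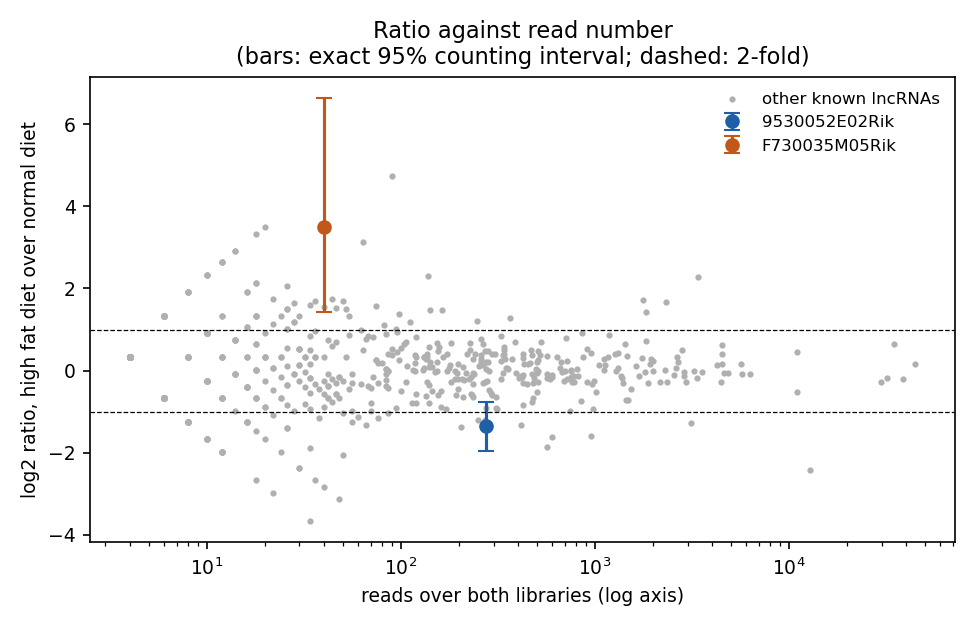
Log2 ratio of high fat diet over normal diet against the reads over both libraries (log axis) for known lncRNAs with reads in both libraries, 1 point each, with exact 95% counting intervals for the members and dashed lines at 2-fold. F730035M05Rik (40 reads) lies where ratios scatter widely, and 9530052E02Rik (276 reads) where they scatter less.

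Other lncRNAs with a like number of reads on the high fat diet give the setting. In that library, 31 lncRNAs had 30 to 42 reads, and their normal diet reads ran from 4 to 82 with a median of 42; F730035M05Rik held the lowest. A further 36 lncRNAs had 56 to 76 reads there and 8 to 210 reads on the normal diet, with a median of 72, and 9530052E02Rik held the highest. Of 120 lncRNAs with at most 4 reads on the normal diet, 2 reached 20 reads on the high fat diet, and F730035M05Rik was 1 of them. The median of these 120 in the high fat diet library was 2 reads. The read ranges and the limit of 4 reads were set around the members' own reads. Both members were chosen with these levels in view, so nothing is read from their places.

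The lncRNAs whose ratio was nearest to that of each member were named among those that reached the minimum of 20 reads, over 2 libraries, which say nothing of shared control. Nearest to 9530052E02Rik (-1.35) were Gm26745 (log2 ratio -1.34, 100 reads against 316), Gm42161 (-1.33, 66 against 208) and AI839979 (-1.32, 16 against 50). Gm42161 had almost the same reads as 9530052E02Rik in both libraries, although it is encoded on chromosome 5. For F730035M05Rik (3.49) the nearest above this minimum was Gm29483 (3.13, 1.62 to 5.10), with 56 reads against 8. The next above it were 4933440J02Rik (2.30) and Gm28592 (2.27). Below the minimum, Pvt1 (18 reads against 2) had the same log2 ratio of 3.49 (0.64 to 8.95) and Gm16025 (16 against 2) one of 3.32 (0.42 to 8.80). All of these intervals overlap that of F730035M05Rik. These lncRNAs were picked for ratios near its own, so nothing is read from the overlap. Whether counting error separates their ratios was not tested.

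Values near the limits of the call show what passed and what did not. Gm26663 (58 reads against 36, log2 ratio 1.01) was just inside 2-fold higher and E130102H24Rik (38 against 24, 0.99) just outside. Xist (14 against 36, -1.04) was just inside 2-fold lower and Gm13833 (212 against 530, -0.998) just outside. At the read minimum, Gm26609 (20 against 10) and Gm26847 (6 against 20) were inside. 4921539H07Rik (18 against 10) and 5330411O13Rik (listed at 1 read against 18) were outside.

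The rest of the pathway was followed through lncRNAs near its genes, since none of those genes is itself listed in the table. A list of 57 insulin signalling genes, from the receptor Insr through the Irs adaptors, phosphoinositide 3-kinase subunits and Akt kinases to FOXO factors, and a list of 41 glycogen genes, from synthases and phosphorylases to their kinases and phosphatase subunits, were searched. GENCODE M21 held all of the first list and 40 of the second. Of the known lncRNAs, only the 2 members overlapped the span of a listed gene. Within 10 kb there was 1 further lncRNA, Gm17552 on chromosome 19, which lies 6212 bases from Rps6kb2, a ribosomal protein S6 kinase gene. Gm17552 had 14 reads against 22, or 72.3 against 90.8 CPM, and its log2 ratio of -0.33 (-1.93 to 1.17) was not called.

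Widening the distance to 50 kb gave 9 entries of the table beside the members, of which 8 reached the read minimum. Of these 8, 0 were called, beside 15.9% of all known lncRNAs that reached it, and with 8 entries nothing is read from this. Fam169b, 1 of these 8, is among the 5 entries of the table that GENCODE M21 annotates as protein coding. Among the 8, 3 ratios were above 0 and 5 below, from -0.64 to 0.59 on the log2 scale, with a median of -0.13. Of all 364 that reached the minimum, 172 were above 0 and 192 below, with a median of -0.01. The interval of Gm11766 near Rptor, a subunit gene of the mTOR complex, ran from -1.23 to -0.07 and left out 0, though at -0.64 the ratio did not reach 2-fold. The most precise of the 9 was Gm16755, near the glucagon receptor gene Gcgr, at 1432 reads against 1796, where the log2 ratio was -0.0032 (-0.15 to 0.14). Gm11766 and Gm16755 were picked for naming once their values were known. All 9 stood between the members, whose own ratios were -1.35 and 3.49. The members were chosen with these ratios in view, so nothing is read from this.

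**Figure D4:**
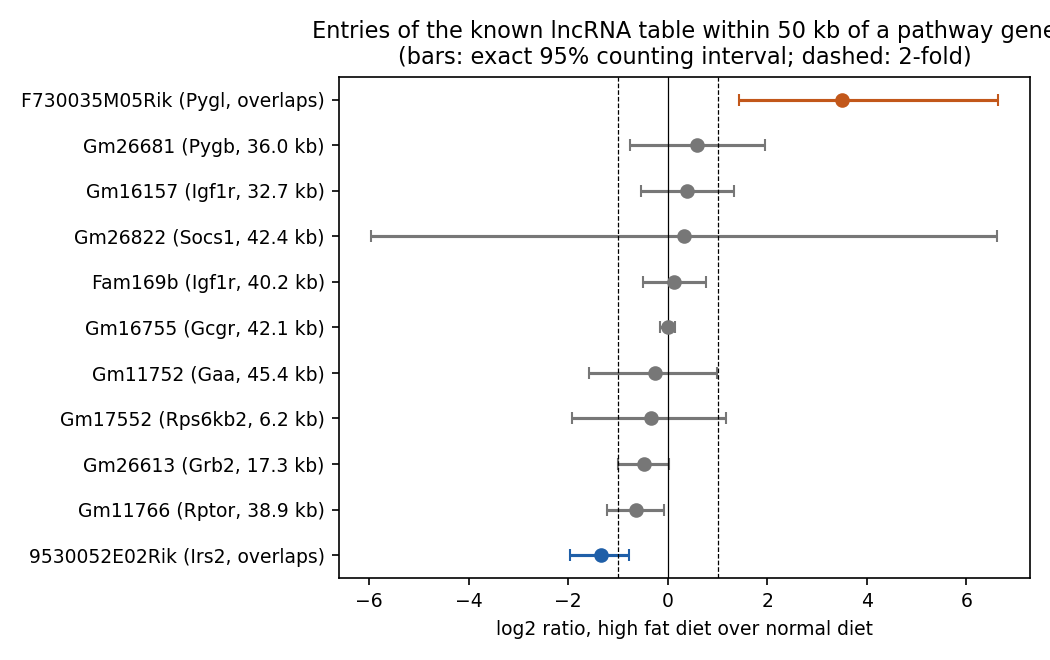
Log2 ratio of high fat diet over normal diet with exact 95% counting intervals for the 11 entries of the known lncRNA table (Fam169b is annotated as protein coding) within 50 kb of an insulin signalling or glycogen gene, each named with its nearest such gene and the distance. The members at Irs2 and Pygl, chosen with their ratios in view, lie outside the dashed 2-fold lines and the other 9 points lie between these lines.

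The members share a start in DNA rich in G and C. They were chosen by their position at Irs2 and Pygl, so this is not independent of the choice. In RefSeq windows of 250 bases before to 50 after a start (GRCm38.p6), the window of 9530052E02Rik had 62.3% G or C and 30 CG dinucleotides, and that of F730035M05Rik 69.0% and 24. The windows at the RefSeq starts of Irs2 and Pygl had 72% and 67% G or C, with 41 and 22 CG dinucleotides. The median of 32817 such windows was 52.7% and 7 CG dinucleotides, and 88.3% and 80.0% of the windows had fewer CG dinucleotides than 9530052E02Rik and F730035M05Rik. For the content of G or C, 76.2% and 88.9% of the windows were lower than these members. The 100 bases before the start of 9530052E02Rik lie wholly within Irs2 coding sequence and are shown for that reason, with CG in capitals (chr8:11007750-11007849, plus strand).

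Before the start of 9530052E02Rik: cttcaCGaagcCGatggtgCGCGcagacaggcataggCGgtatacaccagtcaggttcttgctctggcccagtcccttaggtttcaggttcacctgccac

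The windows differed in the motifs searched, each on both strands. These were the GC box (GGGCGG), the CCAAT box, the TATA box (TATAAA), the E-box (CACGTG), a FOXO site (GTAAACA) and the core of the cAMP response element (TGACGT). F730035M05Rik and Pygl each had 4 GC boxes, which 35.6% of all windows hold at least once. Their windows overlap and these are the same 4 sites, of which 3 are printed between the starts and 1 reaches across the Pygl start. 9530052E02Rik had 0 matches to any of these motifs. The Irs2 window, taken at the RefSeq start with 1078 bases between it and the start of 9530052E02Rik, held 2 CCAAT boxes, 1 GC box and 1 E-box (7.15% of windows have an E-box). None of the 4 windows held the letters of the TATA box, the FOXO site or the cAMP response element core, which occur in 13.6%, 3.65% and 7.51% of windows. A match is a description of letters and not of binding.

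LncRNAs arranged like the members spanned a wide range of ratios. Of 19 lncRNAs that reached the read minimum, started within 1000 bases of an opposite coding start and shared no exon bases with opposite coding genes, 3 were higher and 1 lower (21.1% called), with log2 ratios from -1.62 to 3.49 and a median of -0.16, and F730035M05Rik had the highest ratio. Of 135 lncRNAs with exon bases opposite coding sequence, 9 were higher and 6 lower (11.1% called), with log2 ratios from -2.38 to 2.27 and a median of 0.02, and 9530052E02Rik ranked 2nd from the lowest. These shares stand beside 15.9% over all known lncRNAs and describe these libraries. F730035M05Rik is among the 19 and 9530052E02Rik among the 135, and both count in the shares called. The upper end of 3.49 is F730035M05Rik itself. The members were chosen with these ratios in view, so nothing is read from their ranks.

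The cell make-up of the libraries could be checked only in part, because few markers are listed in the table. Of 8 hepatocyte markers 0 were listed, and of 22 markers of other liver cell types 3 were listed. All came from the list drawn up here for immune cells, namely Gm12840, Mir155hg and Pvt1. Their reads summed to 72 in the high fat diet and 92 in the normal diet library, or 372 and 380 CPM. The sum hides opposite directions, with Pvt1 at 18 reads against 2, Mir155hg at 8 against 2 (log2 ratio 2.32, -1.01 to 7.95) and Gm12840 at 46 against 88 (-0.61, -1.41 to 0.15), none of them called. Pvt1 and Mir155hg were below the read minimum. Whether these 3 lncRNAs are specific to immune cells was not tested, so their sum is not a measure of immune cell content. The part of such cells in the results was not tested. In liver tissue, fewer cells that carry an lncRNA and less of it per cell cannot be told apart. The known lncRNA table was scaled to 193538 reads in the high fat diet and 242194 reads in the normal diet library, and its lncRNAs had medians of 24 and 30 reads.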

How the data were processed

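The tools HISAT2, HTSeq and DESeq and the build mm8 are named, per the submitters' processing notes, with versions, roles, annotation and strandedness not given in the sources used here. Deposited values are CPM, scaled by the authors to the reads of each table. The authors' fold change, its log2 and the p-values and adjusted p-values are also deposited; the p-values were not used. The deposited log2 equalled the log2 ratio of the CPM values. Whole reads were recovered by dividing by the column minimum (taken as 1 read): 100% of values came out whole to within 1e-06. Recovered numbers other than 1 were even, so intervals use read pairs, and a value of 1 read was taken as 0 pairs (as a floor of 3 pairs in calls). That the counted unit is a read pair is inferred from this and not given in the sources used here. If the unit is a single read, the read numbers given here are too high, while ratios and intervals stay the same. Poisson and binomial (Clopper-Pearson) intervals are exact, at 95%. No count model was run, since each diet has 1 library.

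Identifiers were matched to GENCODE M21 (606 of 614); all coordinates are GRCm38, not mm8. Shared stretches were sought among GENCODE transcripts with BLAST+ 2.17.0 (at least 50 bases, 95% identity). RefSeq windows matched all 4 genes sought. Python 3.11.15 and scipy 1.17.1 were used. Intervals were checked on simulated data with counting error only, and calls were checked there at 50 or more read pairs in the higher library. F730035M05Rik does not reach that depth. The members and lists were chosen with earlier results of these data known. Named lncRNAs are the members, those within 10 kb of a listed pathway gene, the 3 nearest in ratio to each member among those that reach 20 reads, and those next to each call limit; Gm11766, Gm16755, Fam169b, Pvt1 and Gm16025 were added once their values were known, and listed cell markers are named too. The motifs were chosen with the windows in view. Numbered lncRNAs, 272 in a separate table, served only an alternative scaling; 0 of them had the same reads as a member.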

Additional observations from a re-analysis of the deposited data

How the results depend on the processing

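The ratios of both members were recomputed with median-of-ratios scaling, scaling by both tables, scaling without the 5 most abundant lncRNAs, and pseudocounts of 1 and 5 read pairs. All 10 values stayed inside the counting interval and past 2-fold. The scalings shift every log2 ratio alike, by -0.048, 0.026 and 0.033 in the order given. Shifts of this size could not take either member out of its interval or below 2-fold, so nothing is read from them. 9530052E02Rik ranged from -1.39 to -1.21 and F730035M05Rik from 2.04 (5 pairs) to 3.53, so the size of the latter depends on the pseudocount. No pseudocount could reverse the direction of F730035M05Rik, so nothing is read from its direction here. Of known lncRNAs, 28 were called higher and 30 lower; without a read minimum 78 and 64 were, with 100 reads 8 and 11, at 1.5-fold 58 and 66, and at 4-fold 6 and 9. At a minimum of 100 reads F730035M05Rik cannot be called, and at 4-fold 9530052E02Rik is not. Median-of-ratios scaling gave 27 and 34, and requiring an interval without 0 gave 25 and 23. Distances of 10 and 50 kb left 1 higher and 1 lower lncRNA at the pathway genes. Dropping the read minimum could not change the count of overlapping lncRNAs, since these are only the members, which pass the minimum. No paired analysis was possible because the series holds 1 library per diet, which also kept any library from being left out. Depth limits F730035M05Rik most, with 2 read pairs on the normal diet.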
